A study of Rattus norvegicus with 2 samples.

Results

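The genes described here encode the matrix metalloproteinases (Mmp), their tissue inhibitors (Timp), and the ADAM and ADAMTS families. They were taken by name, as every row of the deposited gene table whose symbol starts with Mmp, Timp or Adam and a digit, or with Adamts. That gave 53 genes of 29516 in the table, 17 Mmp, 3 Timp, 21 Adam, 11 Adamts and 1 Adamts-like gene. Kidney RNA came from F344 rats, an inbred laboratory strain prone to kidney disease in old age. The rats, obtained from the NIA colony at 16 months of age, ate either a casein control diet or a diet with 14% soy for 4 months and were 20 months old at collection. The comparison asks what a soy diet does to the ageing kidney. No allele or agent other than the diet is named for either group, and GEO's labels list 1 library for each. No source used here gives the number of rats per diet, any pooling of their RNA, or the region of the kidney taken. With 1 library per diet no difference below has a replicate check, so levels are set side by side and no p-value was computed.

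Matrix metalloproteinases are enzymes that cut collagens, elastin and other matrix proteins with a catalytic zinc ion, and most are made as inactive precursors. ADAM proteins sit in the cell membrane, and those with an active protease domain release the outer parts of growth factors, cytokine receptors and adhesion molecules. ADAMTS enzymes are secreted, bind matrix and cut proteoglycans or trim procollagens, whereas ADAMTS-like proteins lack the protease domain. TIMP proteins block the active site of these enzymes. In the kidney, Mmp7 is known as a protease of injured tubule cells and Timp3 as an abundant matrix-bound inhibitor.

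Values are FPKM, which divide the fragments of a gene by transcript length and by the total mapped, so that levels can be set against each other between genes. Differences are log2((soy FPKM + 0.1)/(casein FPKM + 0.1)), where a negative value is lower on soy, and a fold is the plain ratio of the FPKM levels. Summed over all genes, the casein library came to 643145 FPKM and the soy library to 656248, with an unknown number of reads behind them. The kidney origin was visible in nephron markers: all 4 proximal tubule genes and all 4 genes of thick limb and collecting duct that were looked for were present, with summed levels of 1530 FPKM on casein and 1872 on soy for the former and 3456 and 4539 for the latter.

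Of the 53 genes, 19 averaged 1 FPKM or more across the diets. A further 15 had a mean of 0.1 to 1 FPKM and 19 lay below that, 8 of them listed at 0 in both libraries. An exact 0 in such a table can also be a failed estimate. In what follows a gene counts as lower or higher when the log2 difference reaches a 1.5-fold change. Among the 19 genes, 6 were lower on soy, namely Mmp7, Mmp12, Mmp19, Timp1, Adamts1 and Adamts2, and 0 were higher. Over all 14077 genes with that mean, 8.08% were lower and 3.43% were higher. Without regard to size, 15 of the 19 and 47.2% of all genes had a log2 difference below 0. The median log2 difference was -0.21 over the 19 genes and 0.01 over all 14077.

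The level of a gene bears on how often it passes the limit. Of all genes averaging 1 to 10 FPKM 13.3% were lower on soy and 4.92% higher, and of those at 10 FPKM or more 3.66% were lower and 2.16% higher. In the same ranges, 4 of 11 and 2 of 8 of the metalloproteinase genes were lower. The 2 at the higher level were Timp1 and Adamts1. The authors' deposited table marks Adamts1, Mmp7, Mmp12 and Adam8 as lower on soy and marks 0 of the 53 as higher. Of the 17450 genes that the authors' deposited table lists as tested, 34 of the 53 among them, it marks 0.745% as lower and 0.103% as higher. No source used here says how many libraries that test compared.

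**Figure D1:**
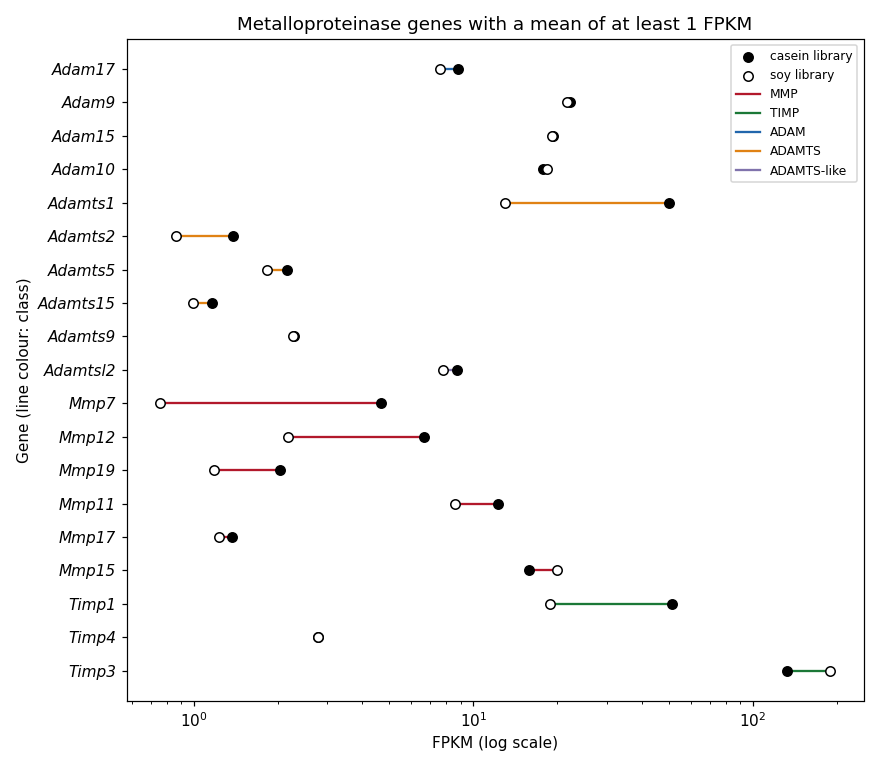
FPKM (log axis) of the 19 metalloproteinase and inhibitor genes averaging 1 FPKM or more, with a filled point for the casein library, an open point for the soy library and a line coloured by gene class between them (1 library per diet, no error bars). Mmp7, Mmp12, Adamts1 and Timp1 have the longest lines, all towards lower values on soy, while Adam9, Adam10, Adam15 and Timp4 have almost overlapping points.

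**Figure D2:**
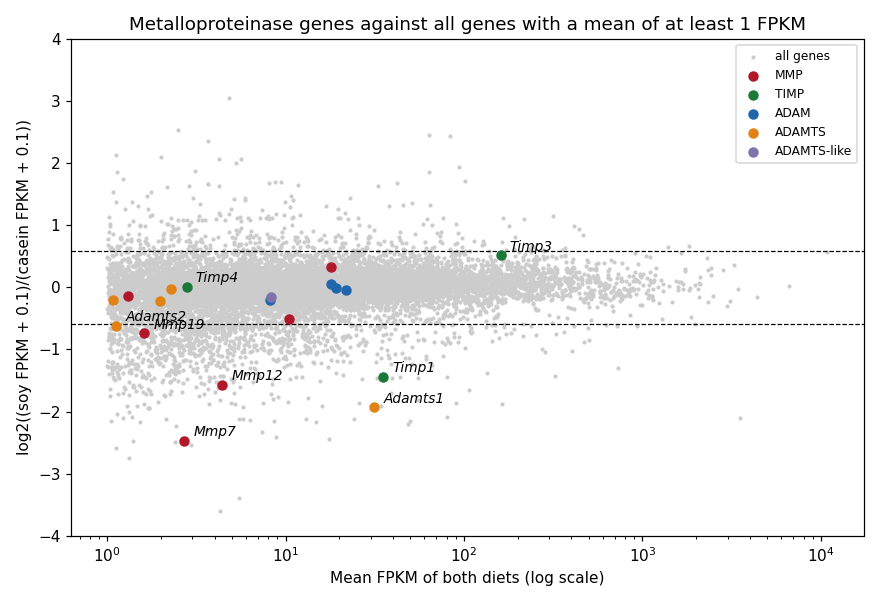
Log2 difference between soy and casein against mean FPKM (log axis), with the 19 genes coloured by class and all 14077 genes averaging 1 FPKM or more in grey. Dashed lines mark the 1.5-fold limits, and 215 grey genes lie beyond the plotted range of log2 -4 to 4. Mmp7, Adamts1, Mmp12 and Timp1 lie well below the lower line and Timp3 lies just under the upper one.

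A run of 10 Mmp genes lies together on chromosome 8, between positions 4158886 and 4533724 by the deposited loci, for which no source used here names a genome build. The order of the listed loci is Mmp13, then Mmp12, Mmp1b and Mmp3, which share a listed locus, then Mmp1a, Mmp10, Mmp8, Mmp27, Mmp20 and Mmp7. Promoters of such genes are known to carry a binding sequence for the AP-1 transcription factor a short way before a TATA box. RefSeq promoter sequences (build GRCr8) were matched by symbol to 37 of the 53 genes, 9 of them in this cluster. The 80 bases from position -100 to position -21, counted from the RefSeq start site, are shown for the 5 cluster genes that hold the AP-1 letters, for Mmp20 and Mmp8 as cluster genes without them, and for Adamts1, the most changed gene outside the cluster. Capitals mark the AP-1 letters TGAGTCA, or TGACTCA as they read from the opposite strand. They also mark the letters TATAAA of a TATA box. On the opposite strand these read TTTATA. The motifs did not overlap each other in these windows.
Mmp13, chr8:12782729-12782808, plus strand: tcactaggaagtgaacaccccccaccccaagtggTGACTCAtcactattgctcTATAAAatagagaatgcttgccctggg
Mmp12, chr8:12866552-12866631, plus strand: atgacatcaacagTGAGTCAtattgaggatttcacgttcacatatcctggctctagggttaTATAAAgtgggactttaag
Mmp3, chr8:12925181-12925260, plus strand: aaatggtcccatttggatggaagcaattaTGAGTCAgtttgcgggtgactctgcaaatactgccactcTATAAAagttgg
Mmp10, chr8:12974607-12974686, plus strand: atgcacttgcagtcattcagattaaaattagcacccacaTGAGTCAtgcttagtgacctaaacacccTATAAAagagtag
Mmp7, chr8:13132943-13133022, plus strand: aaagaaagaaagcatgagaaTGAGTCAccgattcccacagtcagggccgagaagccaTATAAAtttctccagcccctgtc
Mmp20, chr8:13074179-13074258, plus strand: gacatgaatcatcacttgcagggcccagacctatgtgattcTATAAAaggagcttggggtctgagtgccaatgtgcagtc
Mmp8, chr8:13008790-13008869, plus strand: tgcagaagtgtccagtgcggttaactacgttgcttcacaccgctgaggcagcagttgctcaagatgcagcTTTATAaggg
Adamts1, chr11:38427405-38427484, minus strand: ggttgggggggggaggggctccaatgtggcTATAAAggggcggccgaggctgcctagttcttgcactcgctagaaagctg

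In the 250 bases before the start, the AP-1 letters stood in 5 of the 9 cluster promoters (55.6%), in 1 of 28 promoters of the other matched genes (3.57%, Adam19) and in 4.05% of all 33469 rat promoters in the table. The TATA letters stood in 7 of the 9 (77.8%), in 7 of the 28 other matched genes (25%) and in 12.9% of all promoters. Mmp1b and Mmp27 of the cluster had neither set of letters and are not shown above. The AP-1 letters began 87 bases before the start in Mmp12, 80 in Mmp7, 71 in Mmp3, 66 in Mmp13 and 61 in Mmp10. The TATA letters followed at 39, 43, 32, 47 and 33 bases before it. Further TATA letters began 140 bases before the start in Mmp7, and 198 and 196 in Mmp10. Those of Mmp20 began at 59 and those of Adamts1 at 70. A match describes letters and is no evidence of a bound factor. The genes with this arrangement had very different levels, since Mmp7 and Mmp12 were measured well above 1 FPKM on casein while Mmp3, Mmp10 and Mmp13 were near 0 under both diets.

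Within the cluster, transcripts of the matrilysin and macrophage elastase genes made up nearly all of the signal. Mmp7, which encodes matrilysin, a small secreted protease without the hemopexin domain of most relatives, had 4.66 FPKM on casein and 0.757 on soy. The soy library was 6.15-fold lower, and only 112 of 14077 genes had a lower log2 difference than the -2.47 of Mmp7. The authors' deposited table marks Mmp7 with q = 0.000442 for the gene and q = 0.0006 for its transcript. Its locus runs from 4526017 to 4533724 on chromosome 8.

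Mmp12 encodes the elastase of macrophages. It had 6.65 FPKM on casein and 2.18 on soy, 3.05-fold lower on soy. The authors' deposited table marks it with q = 0.0239. T cell and macrophage markers were lower as well, and neutrophil markers, which were not all lower, are given below with Mmp9. All 4 T cell genes looked for were lower, with a summed level of 32.6 FPKM on casein and 13.7 on soy. Of all genes, 8.08% were lower, and 13.3% of those averaging 1 to 10 FPKM. Of 6 macrophage genes looked for, 5 were found (Adgre1 was not found under that name) and 4 averaged 1 FPKM or more. All 4 of these macrophage genes were lower on soy (all genes 8.08%), and their summed level was 115 FPKM on casein and 53.3 on soy. The part of macrophage or other leukocyte number in the Mmp12 difference was not tested, and in bulk RNA fewer cells of a type and less RNA per cell cannot be told apart. The Mmp7 level relative to Mmp12 was 0.70 on casein and 0.35 on soy, so the matrilysin transcript was lower by more than the elastase transcript.

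The enamel protease gene Mmp20, next to Mmp7, had 0.397 FPKM on casein and 0.115 on soy. At this level 25.4% of all genes (mean of 0.1 to 1 FPKM) were lower on soy. The other 7 cluster genes averaged under 0.1 FPKM, among them the stromelysin genes Mmp3 (0.0768 and 0.0372 FPKM) and Mmp10 (0.017 and 0.00096 FPKM), the collagenase gene Mmp13 and the neutrophil collagenase gene Mmp8. Mmp1a, Mmp1b and Mmp27 were listed at 0 in both libraries. The whole cluster summed to 11.8 FPKM on casein and 3.13 on soy.

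**Figure D3:**
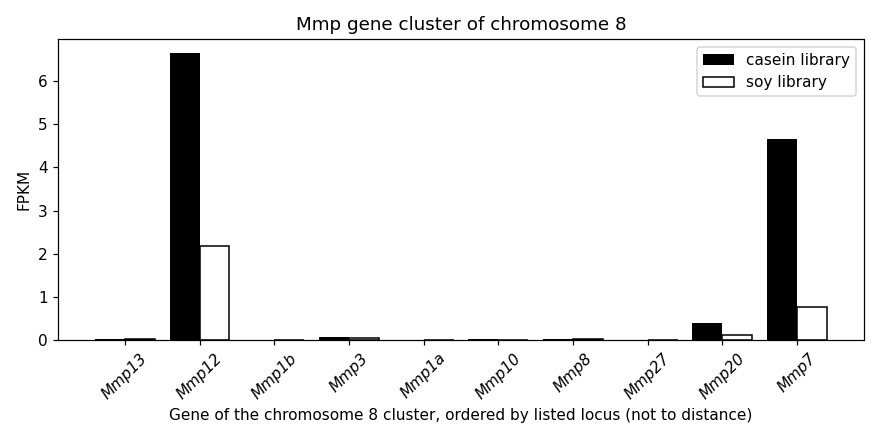
FPKM (linear axis from 0) of the 10 Mmp genes of the chromosome 8 cluster in the order of their listed loci, not to distance, with a black bar for the casein library and a white bar for the soy library (no error bars, 1 library per diet). Mmp12 and Mmp7 rise above 1 FPKM on casein, Mmp20 is small, and the other 7 are close to 0.

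Outside the cluster 1 of the 4 Mmp genes averaging 1 FPKM or more passed the limit, as lower on soy. Of all genes 8.08% were lower, and 13.3% of those averaging 1 to 10 FPKM. Mmp19, a secreted metalloproteinase, had 2.03 FPKM on casein and 1.18 on soy, 1.73-fold lower. This passed the 1.5-fold limit, but not with a pseudocount of 1 in place of 0.1, where the log2 difference was -0.48. Mmp11, which encodes stromelysin-3, a protease typically made by stromal cells, had 12.3 and 8.60 FPKM, a log2 difference of -0.51 inside the limit. Mmp15, a membrane-anchored metalloproteinase with a transmembrane segment, was the most abundant Mmp gene by mean among the 17 and went the other way, at 15.8 FPKM on casein and 19.98 on soy.

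Mmp17, another membrane-anchored member, had 1.37 and 1.23 FPKM. The gelatinase gene Mmp9, a product of neutrophils and macrophages, had only 0.275 FPKM on casein and 0.287 on soy, and was thus low under both diets. Of the neutrophil markers, Mpo had 0.0085 and 0.00915 FPKM and Elane was listed at 0, while S100a8 and S100a9 had summed levels of 5.93 and 1.86 FPKM. Mmp28, known as epilysin, had 0.898 and 0.53 FPKM, and Mmp21 was listed at 0 on soy and at 0.00834 FPKM on casein. Summed over the 17 genes, Mmp transcripts came to 44.5 FPKM on casein and 34.9 on soy.

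The inhibitor genes differed in direction. Timp1, the soluble inhibitor that is typically induced in scarring tissue, had 51.3 FPKM on casein and 18.8 on soy, 2.72-fold lower. Of 14077 genes, 237 had a lower log2 difference than its -1.44. The authors' deposited table does not mark Timp1 (q = 0.281), although it marks Mmp12 at a far lower level. Timp3, the matrix-bound inhibitor of ADAM17 as well as of Mmp enzymes, was the most abundant of the 53 genes, at 132 FPKM on casein and 189 on soy. It was 1.43-fold higher, with a log2 difference of 0.52 that lies inside the 1.5-fold limit and has 625 of 14077 genes above it, and the authors' deposited table does not mark it (q = 0.647). Timp4 had 2.78 and 2.79 FPKM.

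The ratio of Timp1 to Timp3 within a library does not depend on how the libraries were scaled against each other. It was 0.388 on casein and 0.0997 on soy. Because Timp3 dominates the sum, Timp1, Timp3 and Timp4 together came to 186 FPKM on casein and 211 on soy. Each of these genes shares its listed locus with a synapsin gene, Timp1 with Syn1 on the X chromosome, Timp3 with Syn3 on chromosome 7 and Timp4 with the Syn2 entry on chromosome 4. The synapsin genes, which encode proteins of synaptic vesicles, had 0.122 to 1.12 FPKM on casein and 0.132 to 0.776 on soy, far below Timp1 and Timp3. Counting the Timp gene itself, 3 genes have the listed locus of Timp1 and 4 that of Timp4. Those other than the Timp and synapsin genes were not compared.

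The widely expressed ADAM sheddases hardly differed between the diets. Adam10, which cleaves Notch receptors and cadherins, had 17.7 FPKM on casein and 18.3 on soy. Adam17, which releases tumour necrosis factor and ligands of the epidermal growth factor receptor, had 8.81 and 7.62 FPKM. Adam9 had 22.2 and 21.6 FPKM, and Adam15 had 19.2 and 19.1. The log2 differences of these 4 genes, the Adam genes averaging 1 FPKM or more, ran from -0.21 to 0.05.

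Of the Adam genes averaging 0.1 to 1 FPKM, Adam8, Adam12, Adam19 and Adam23 were lower on soy, in a range where 25.4% of all genes were lower. Adam8, found on leukocytes and other cells, had 1.25 FPKM on casein and 0.332 on soy, 3.77-fold lower, and the authors' deposited table marks it with q = 0.0466. The authors' marked transcripts include those of Adamts1, Mmp12 and Mmp7 but none under the name Adam8. Adam8 fell short of a mean of 1 FPKM and so is not among the 6 genes counted above. Adam12, a gene of mesenchymal cells, had 0.524 and 0.206 FPKM, though a further row described as Adam12 protein had 0.22 and 0.227 FPKM.

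Adam19 had 0.74 FPKM on casein and 0.455 on soy. Adam23, whose protein lacks protease activity and acts in adhesion, had 0.777 and 0.382 FPKM, while its relative Adam22 had 0.945 and 0.824. Adam4 and Adam4l1 differed little, with log2 differences of -0.07 and 0.13. Of the remaining 10 Adam genes, several of them known from testis or epididymis such as Adam2, Adam7, Adam18 and Adam24, all averaged under 0.1 FPKM, 5 were listed at 0 in both libraries and 4 in the soy library only.

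Among the ADAMTS genes the difference was concentrated in Adamts1. This secreted protease cuts the proteoglycans aggrecan and versican and is inducible in many tissues. Adamts1 had 49.9 FPKM on casein and 13.01 on soy, 3.84-fold lower. Of 14077 genes, 140 had a lower log2 difference than its -1.93, and the authors' deposited table marks it with q = 1.55e-12 for the gene and 1.94e-12 for its transcript.

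The neighbouring gene on chromosome 11 is Adamts5, which encodes another aggrecan-cutting enzyme. The Adamts1 locus runs from 25434264 to 25443144 and that of Adamts5 starts 60.2 kb further on, at 25503379. Adamts5 had 2.15 FPKM on casein and 1.83 on soy, a log2 difference of -0.22. Adamts9 (2.29 and 2.26 FPKM) and Adamts15 (1.16 and 0.989 FPKM), of the same proteoglycan-cutting group, also stayed within the 1.5-fold limit. Adamts1 made up 89.9% of the summed FPKM of these 4 genes on casein and 71.9% on soy. Adamts8, listed under a protein-entry name, is not in this sum. It had 4.56 FPKM on casein and 2.89 on soy, 1.58-fold lower and past the limit.

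The procollagen-trimming group went lower in part. Adamts2, which removes the amino-terminal propeptide of fibrillar procollagens, had 1.38 FPKM on casein and 0.864 on soy, 1.60-fold lower. With a pseudocount of 1 its log2 difference was -0.35, inside the limit. Adamts14, of the same activity, had 0.572 and 0.199 FPKM and Adamts3 0.41 and 0.522 FPKM, so these relatives differed in direction at levels under 1 FPKM. Bmp1, the metalloproteinase that removes the carboxy-terminal propeptide, had 10.8 and 6.92 FPKM, and its enhancer Pcolce had 28.4 and 18.7 FPKM.

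Adamts7 and Adamts12, which cut cartilage oligomeric matrix protein, had 0.839 and 0.493 FPKM, and 0.427 and 0.272 FPKM. Adamts17 had 0.174 FPKM on casein and 0.36 on soy. Adamtsl2, whose protein binds fibrillin microfibrils and has no protease domain, had 8.74 and 7.80 FPKM. Of the 15 genes of all classes with a mean of 0.1 to 1 FPKM, 8 were lower (Adam8, Adam12, Adam19, Adam23, Adamts7, Adamts14, Mmp20 and Mmp28) and 1 was higher (Adamts17). Among all 3397 genes of that range 25.4% were lower and 11.4% were higher.

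A further 15 genes of these families are listed under protein-entry or other names and were thus not taken by the naming rule. They were looked up after the values of the table had been seen, and 6 of them averaged 1 FPKM or more. All 6 had lower values on soy, against 47.2% of all genes, and 3 of them passed the 1.5-fold limit, against 8.08% of all genes and 13.3% of those averaging 1 to 10 FPKM. Mmp14, the membrane protease that activates the gelatinase proMmp2, had 20.2 FPKM on casein and 13.1 on soy, 1.55-fold lower. Timp2, which takes part in that activation, had 60.6 and 41.9 FPKM, a log2 difference of -0.53 inside the limit. With Timp2 included, the inhibitor genes summed to 247 FPKM on casein and 252 on soy.

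Adamts8, which lies beside Adamts15 on chromosome 8, had 4.56 FPKM on casein and 2.89 on soy, and Adamtsl5 had 4.52 and 2.81. These 2 passed the limit, at 1.58-fold and 1.61-fold. Adamts10 (9.82 and 8.81 FPKM), a microfibril-associated relative, and Mmp23 (6.81 and 5.14 FPKM) did not. Mmp16, a membrane-type relative averaging under 1 FPKM, had 0.5 FPKM on casein and 0.117 on soy, 4.29-fold lower. The authors' deposited table marks 0 of the 15, with q = 0.349 for Mmp14 and q = 0.621 for Timp2. Mmp2, Adamts4 and Adamts13 were not analysed here.

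Related genes were read from lists of regulators, partners and substrates, counting genes averaging 1 FPKM or more. Each count below stands against 8.08% lower and 3.43% higher among all genes of that level, or 13.3% and 4.92% among those at 1 to 10 FPKM, and a median of 0.01. The plasminogen system, whose protease plasmin can activate Mmp precursors, was lower in 3 of 9 genes (all genes 8.08%) and higher in 0 (all genes 3.43%), with a median log2 difference of -0.47. Plaur, the urokinase receptor, had 7.21 FPKM on casein and 3.61 on soy. S100a10, which binds plasminogen at the cell surface together with Anxa2, had 409 and 243 FPKM. The urokinase gene Plau itself was high under both diets, at 539 and 577 FPKM.

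Of 11 other inhibitors and partners, 4 were lower (all genes 8.08%) and 1 was higher (all genes 3.43%), with a median of -0.24. Cd44, the hyaluronan receptor that can hold Mmp7 and Mmp9 at the cell surface, had 27.7 and 10.6 FPKM and carries the mark of the authors' deposited table (q = 1.06e-05). Fn1, fibronectin, had 25.2 and 12.3 FPKM (q = 0.036 in the authors' deposited table). Lcn2, the partner of Mmp9, had 3.64 and 1.37 FPKM, and the general protease inhibitor A2m had 1.29 and 0.742. The higher gene was Spock2, a proteoglycan, at 2.15 and 3.66 FPKM. Reck, a membrane-anchored inhibitor of Mmp enzymes, had 4.98 and 5.16 FPKM, and Bsg, known as an inducer of Mmp genes, had 862 and 849.

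Substrates of the ADAMTS enzymes and related matrix genes were lower in 3 of 7 cases (all genes 8.08%) and higher in 1 (all genes 3.43%), with a median of -0.52. The matrix genes Fbn1 (2.23 and 0.95 FPKM, q = 0.0281 in the authors' deposited table) and Fbln1 (6.50 and 3.31 FPKM, not marked, q = 0.268) were lower. So was Pcolce, the Bmp1 enhancer named above. Vwf, for the clotting protein that Adamts13 cuts, was higher at 7.33 and 11.5 FPKM. Versican, Vcan, a substrate of Adamts1, had 1.29 and 1.11 FPKM, inside the limit. Of 6 fibroblast markers looked for, 5 averaged 1 FPKM or more, and 4 of these had a log2 difference below 0. Past the limit were 2 of the 5 (all genes 8.08%), Col1a1 (15.5 and 5.51 FPKM) and Col1a2 (18.2 and 9.06 FPKM). Inside it were Pdgfrb (11.2 and 8.47 FPKM), Dcn (114 and 99.1) and Pdgfra (11.9 and 12.0). Lum, averaging under 1 FPKM, had 1.32 and 0.462. The part of fibroblast number in the matrix protease differences was not tested.

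Regulators and substrates of ADAM10 and ADAM17 were lower in 5 of 24 genes (all genes 8.08%) and higher in 0 (all genes 3.43%), with a median of -0.06. Axl, a receptor tyrosine kinase shed by these enzymes, had 23.1 FPKM on casein and 8.05 on soy and is marked by the authors' deposited table (q = 0.000366). Tnfrsf1b, a receptor of tumour necrosis factor, had 6.29 and 2.68 FPKM, Il6r 3.68 and 2.03, the membrane chemokine Cxcl16 109 and 65.8, and the adhesion molecule Icam1 18.7 and 12.4. Rhbdf1 and Rhbdf2, which bring Adam17 to the cell surface, had 17.5 and 18.1 FPKM, and 8.70 and 6.53 FPKM.

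Other metallopeptidases of the kidney were the list with a median above 0, at 0.16, with 2 of 9 genes higher (all genes 3.43%) and 1 lower (all genes 8.08%). Mep1a, a meprin subunit of the proximal tubule brush border, had 185 FPKM on casein and 293 on soy, and Mme, the peptidase neprilysin, had 57.1 and 93.5. Bmp1 was the lower gene. The 4 proximal tubule markers had log2 differences from 0.20 to 0.63, of which Lrp2 alone passed the limit, and the part of proximal tubule content in the Mep1a and Mme values was not tested. The authors' deposited table marks 0 genes of this list.

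**Figure D4:**
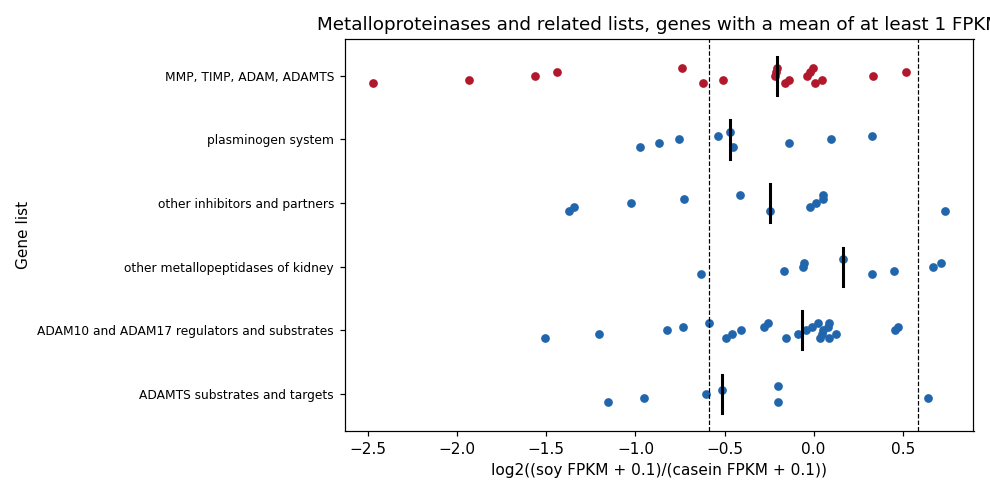
Log2 difference between soy and casein for the 19 metalloproteinase and inhibitor genes (red) and for 5 related lists (blue), 1 point per gene averaging 1 FPKM or more, with a black bar at each median and dashed lines at the 1.5-fold limits. The medians run from -0.52 for ADAMTS substrates and related matrix genes to 0.16 for other kidney metallopeptidases, and the metalloproteinase genes reach furthest to the left, with Mmp7 at -2.47.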

How the data were processed

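The authors' deposited gene table gives an FPKM value per gene and diet, with the p-value and q-value of the authors' test, per the file headers. A second deposited table lists FPKM, p-values and q-values of transcripts that carry the authors' mark of significance. Bowtie, TopHat and Cufflinks were used, per the submitters' processing notes, which list no version. No source used here states the build, annotation, strand setting or scaling between libraries. A listed locus can cover several genes, whose fragments may then be hard to assign.

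From the FPKM values log2((soy + 0.1)/(casein + 0.1)) was computed for all genes. No test was run, since there is 1 library per diet and FPKM values carry no read depth. The column headed CON was read as casein and TRT as soy. Genes averaging 1 FPKM or more were counted against a 1.5-fold limit. Named individually were genes past that limit, marked by the authors or averaging 10 FPKM or more, and every Timp gene; further members are given with brief values. Of the related lists, members were named from the 6 largest differences, and others as reference points after their values had been seen. A gene of these lists that the rule names is not reported here. The genes and lists were chosen with earlier results of these data known. RefSeq symbols matched 51 of the 53 genes. Software was Python 3.11.15 with pandas 2.3.3, numpy 2.4.6 and, for plots, matplotlib 3.10.9.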

Additional observations from a re-analysis of the deposited data

How the results depend on the processing

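No paired analysis was possible because each diet has 1 library. The 6 lower and 0 higher metalloproteinase genes were also found with a pseudocount of 0.01 and with centring on the median of all genes (a shift of 0.01). Tested rows only and 1 row per symbol kept all 19 genes, so these counts could not change there. Leaving out the ADAMTS-like gene, itself inside the limit, could not change them either. A pseudocount of 1 left 4 of 19 lower (all genes 6.1%) and a 2-fold limit 4 of 19 (all genes 3.59%). Adding the 15 relatives listed under other names, chosen after seeing the data, gave 9 lower of 25 averaging 1 FPKM or more (all genes 8.08%). At a limit of 5 FPKM on the mean 2 of 10 genes were lower. The median log2 difference there was -0.10, compared with -0.21 at the limit of 1 FPKM. Of all 10260 genes 463 (4.51%) were lower and 255 (2.49%) higher, compared with 1137 and 483 of 14077. At a limit of 0.1 FPKM 14 of 34 were lower and 1 higher, and of all 17474 genes 1999 (11.4%) were lower and 869 (4.97%) higher. At a 2-fold limit 505 of all 14077 genes (3.59%) were lower and 218 (1.55%) higher. The 14077 genes include short RNAs. Without these, a setting not planned beforehand, 975 of 13561 genes (7.19%) were lower at the 1.5-fold limit and 322 (2.37%) higher. Of the 4 genes marked by the authors, 2 had q under 0.01. Of 42 recomputed differences of the 14 named genes, 0 changed direction beyond the limit and 7 moved by more than 0.1 or crossed it. Values under 1 FPKM rest on an unknown number of reads.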
